A study of Homo sapiens with 6 samples.

Results

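Knockdown of the lysine-specific demethylase LSD1 in U2OS cells was accompanied by higher counts of a group of genes with few reads in control cells, among them the B-cell receptor CD22 and the Polo-like kinase PLK5. The group holds 64 genes of the 15585 in the count table and was chosen by the read counts themselves. A gene was taken when its counts summed over the control libraries lay between 3 and 60, when its sum after knockdown was at least 30 and at least 2 times the control sum, and when its lowest count after knockdown exceeded its highest control count. Genes named PSG, CDH, PCDH or COL, and CD274 and AREG, were left out, and 10 genes that met the counts were removed in this way: PSG1, PSG2, PSG3, PSG6, CDH3, CDH5, COL25A1, COL26A1, CD274 and AREG. A low count here need not mean a silent gene: widely used genes such as ALDOA (38 reads summed over siCTR and 41 over siLSD1) and BRD2 (9 and 3), looked up after the values were seen, are low in this table too. Because the members were selected on the contrast between the groups, their differences are given as a description, without a test.

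U2OS is an established human osteosarcoma line. RNA was sequenced 48 h after transfection with a control siRNA (siCTR, 3 libraries) or with siRNA against LSD1 (siLSD1, 3 libraries), and both groups share the transfection. The libraries held 12855558, 13026699 and 13444230 counted reads for siCTR, and 13292468, 12513511 and 13561344 for siLSD1. Nothing in the labels says that the libraries came from separate cultures, so p-values measure the spread between these samples, which may be technical.

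LSD1 removes methyl groups from lysine 4 of histone H3, a mark of active promoters and enhancers, and works in corepressor complexes such as CoREST and NuRD. CoREST is recruited by REST to neuronal genes in cells outside the nervous system, and by GFI1 in blood cells. Genes of other lineages are among those that these complexes are known to keep low.

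KDM1A, the gene of LSD1, was counted 6140, 6493 and 6573 times in siCTR and 1110, 1198 and 1246 times in siLSD1. The groups were far apart, and each library fitted its label. The log2 fold change was -2.44 ± 0.11 (SE, n = 3 per group), with an adjusted p of 2.27e-07 (edgeR, quasi-likelihood fit, p-values adjusted by Benjamini and Hochberg's method). Of the osteoblast and mesenchymal markers, VIM and ALPL were abundant, at means of 428 and 123 FPKM (a length-scaled and depth-scaled level) in siCTR. RUNX2, SP7 and SPARC, markers of osteoblasts, had at most 4 reads in any library, which, as for ALDOA and BRD2, need not mean that they were silent.

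The rule found 64 genes among the 2683 with a control sum in its range, or 2.39%. The mirror rule, with siCTR and siLSD1 exchanged, found 27 genes among 2799, or 0.965%. More genes thus met the rule than its mirror. The same order held without each library in turn, though these turns reuse the other libraries and are not independent of the full rule. The pair of numbers became 97 and 36 without siCTR replicate 1, 72 and 50 without siCTR replicate 2, and 87 and 46 without siCTR replicate 3. It became 76 and 59 without siLSD1 replicate 1, 96 and 40 without siLSD1 replicate 2, and 104 and 25 without siLSD1 replicate 3. The control of replicate 2 stood apart from the other controls: over the tested genes, the chi-square per degree of freedom between libraries was 29.1 and 22.5 for its pairs with controls 1 and 3, and 6.99 between those. It also had the lowest control sums of CPM given below, and without it the numbers of 72 and 50 were closer to each other than the full 64 and 27. The siLSD1 libraries 1 and 3 were also apart, at 23.2, against 6.46 between 1 and 2 and 10.3 between 2 and 3. Without siLSD1 replicate 1, the numbers of 76 and 59 were closer still. Some pairs across the groups were nearer than these, such as control 3 with siLSD1 library 2, at 10.1. With a ratio of at least 3 the rule found 20 genes and its mirror 2. Across the whole table, 1366 of 15585 genes (8.76%) had every siLSD1 count above every siCTR count, and 1067 the opposite.

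**Figure D1:**
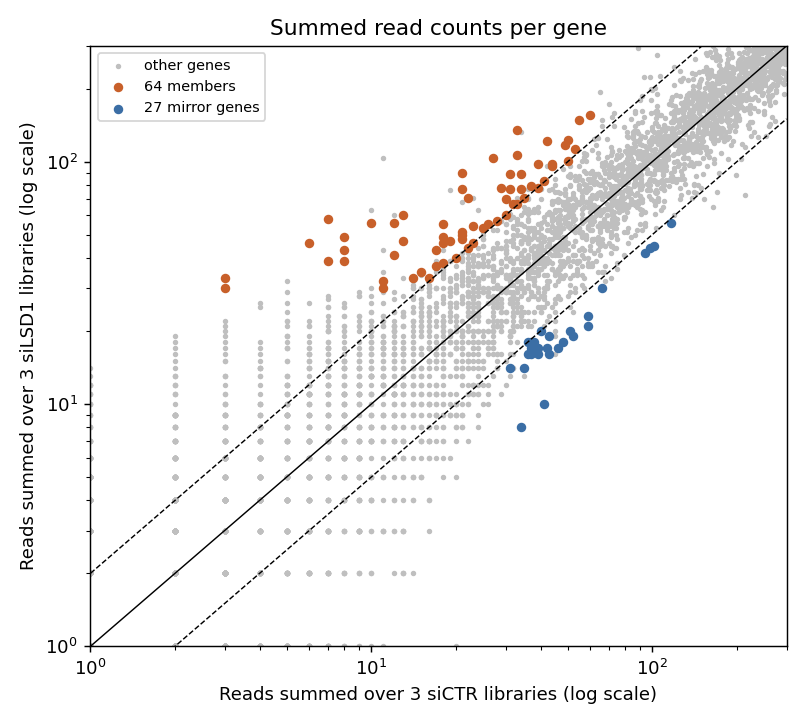
Reads summed over the 3 siCTR libraries (x axis) and the 3 siLSD1 libraries (y axis) for each gene, both on log scales, with the 64 members and the 27 mirror genes coloured. The solid line marks equal sums and the dashed lines a ratio of 2 in either direction.

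The 2683 genes with a control sum in the range summed to 1387, 1184 and 1237 CPM (counts scaled to a common depth, by TMM) in siCTR and to 1543, 1425 and 1311 in siLSD1. The siLSD1 libraries 1 and 2 were above every control, and library 3 lay inside the control range. This class was chosen by its siCTR sum, which can by itself shift the comparison. In libraries left out of the choice, the ratio of summed CPM was 1.10, 1.20 and 1.05 for the class chosen by siCTR sum and 1.05, 1.13 and 0.986 for that chosen by siLSD1 sum. The members alone summed to 43.8, 37.2 and 41.9 CPM in siCTR and to 111, 106 and 111 in siLSD1. The highest siLSD1 value of a member, by CPM, was that of library 1 for 24 genes, of library 2 for 15 and of library 3 for 25.

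**Figure D2:**
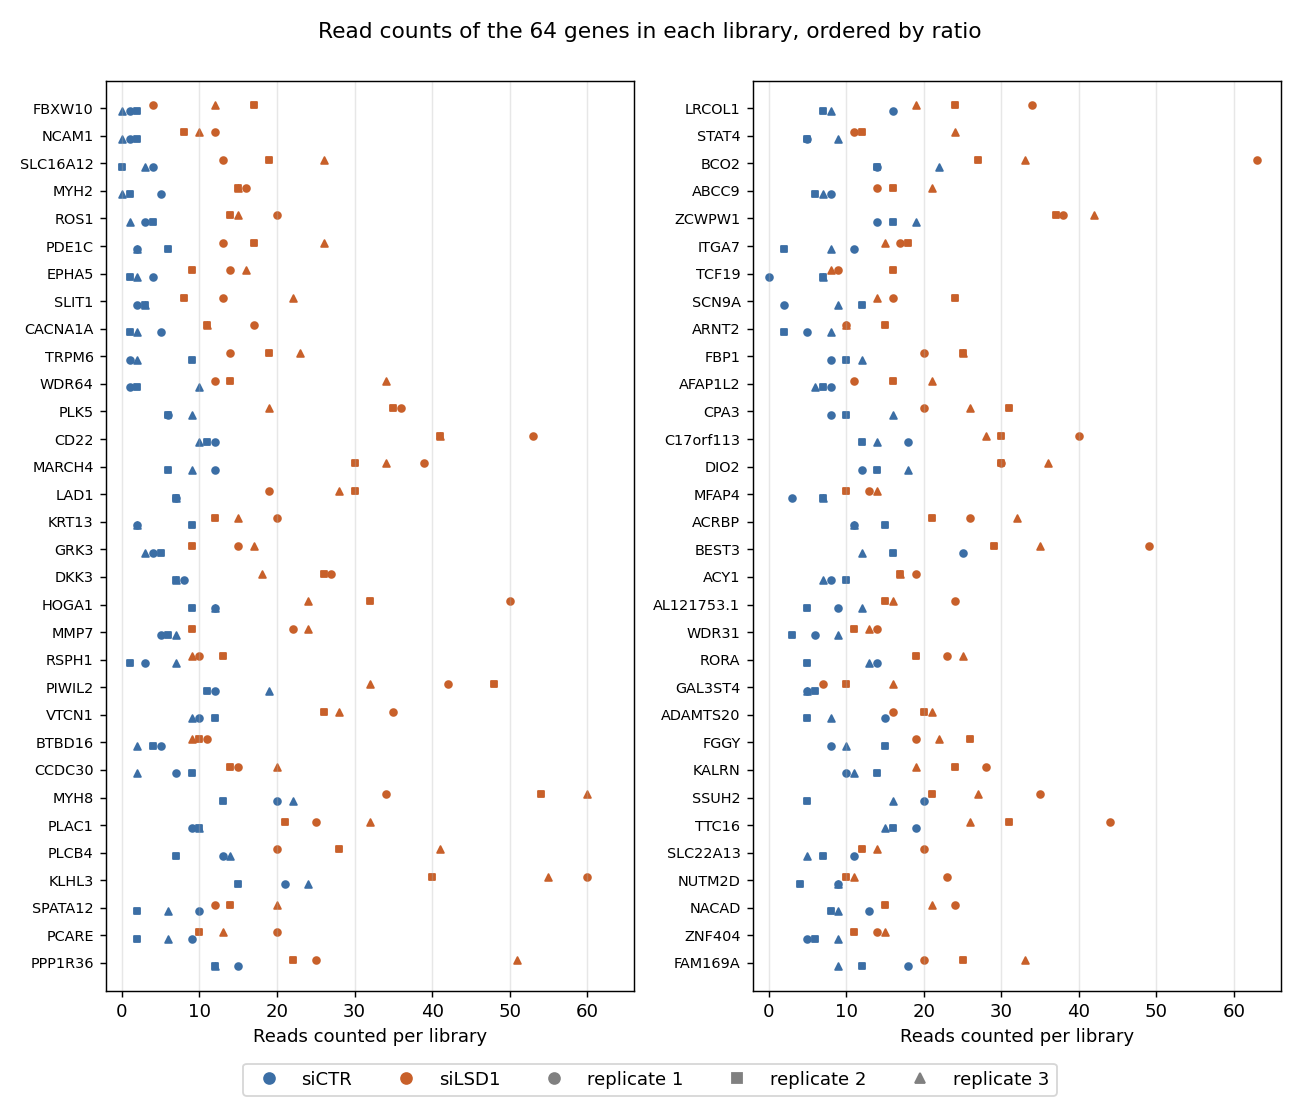
Reads counted for each of the 64 genes in each of 6 libraries, ordered by the ratio of summed counts from the top of the left panel to the bottom of the right one. Blue points are siCTR and orange points siLSD1, and the groups do not overlap because the rule required it.

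To look at libraries that had no part in the choice, genes were chosen on 2 replicate numbers, with thresholds scaled to 2 libraries, and then read in the libraries of the third number. With replicate 1 left out, 109 genes were chosen, and 78.0% of them were higher in siLSD1 replicate 1 than in siCTR replicate 1 by CPM. The share was 77.6% of 107 genes for replicate 2 and 67.1% of 140 genes for replicate 3. Among all genes with a control sum in the range, the shares were 47.9%, 56.8% and 41.8%. In that class 44.8%, 33.5% and 49.6% were lower and the rest were equal, which reduces both shares. Of the chosen genes, 22.0%, 22.4% and 32.9% were lower. Genes chosen in the mirror direction were higher in siLSD1 in 36.4% of 66, 40.6% of 69 and 15.4% of 39 cases, beside 46.9%, 55.5% and 39.96% of all genes with a siLSD1 sum in the range. Most genes of both choices thus kept their direction in the libraries left out. Of the genes chosen as higher, 51 of 109, 48 of 107 and 53 of 140 were members by the full rule. The shares therefore describe the chosen genes and not the members alone. Each share compares a single siLSD1 library with a single siCTR library, so its genes are not replicates of the knockdown. For genes chosen as higher, the difference shrank. The ratio of summed CPM was 1.58, 1.71 and 1.52 in the left-out libraries, against 2.77, 2.58 and 2.62 in those used. The 3 choices share libraries and genes and are not independent of each other.

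**Figure D3:**
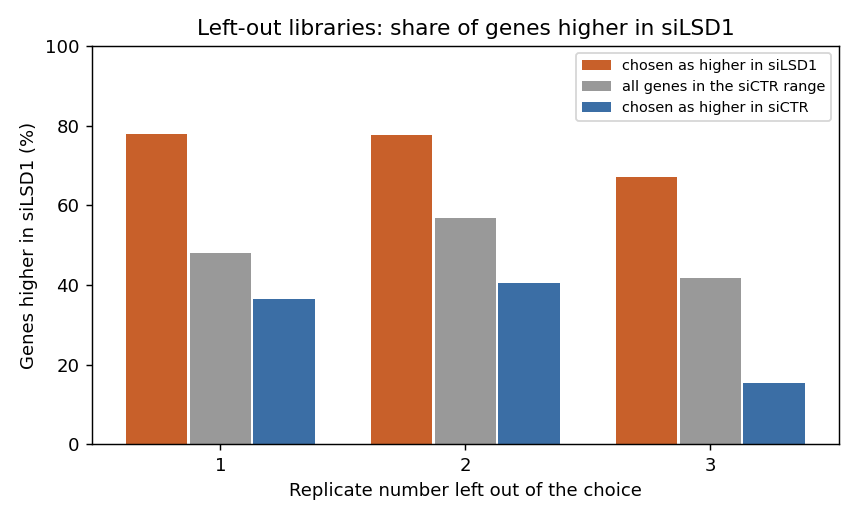
Share of genes (y axis, percent) that were higher in the siLSD1 than in the siCTR library of the replicate number left out of the choice (x axis). Orange bars are genes chosen as higher in siLSD1, grey bars all genes in the siCTR range, and blue bars genes chosen as higher in siCTR; the orange bars lie between 67.1% and 78.0%.

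Members were low in both groups. Their median control sum was 22 reads and their median siLSD1 sum 56.5, and the highest siLSD1 sum was 155 (KLHL3). Per length, the median was 0.166 FPKM in siCTR and 0.432 FPKM in siLSD1. The mean was at least 1 FPKM after knockdown in 10 genes. Of these, AL121753.1 and LRCOL1 were already above 1 FPKM in siCTR, at 1.25 and 1.02. The ratio of summed counts, scaled by TMM, was at least 4 in 13 genes, from 3 to 4 in 7 and under 3 in 44. Scaling placed genes with a raw ratio of exactly 2 at 1.995. The 95% intervals given with these ratios are exact, cover counting error only and take no account of the choice of genes. Only 53 members passed the filter on low counts, and a member that passed through its siLSD1 counts had to differ. Of these, 14 had an adjusted p under 0.05 in edgeR, beside 1.07% of all 11844 genes tested that were called higher and 0.371% called lower, and nothing is read from that count since the rule used the same contrast. Between 1 and 7 members were called when any 1 library was left out.

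CD22, a sialic acid-binding receptor that restrains B-cell signalling, had 12, 11 and 10 reads (siCTR) against 53, 41 and 41 (siLSD1). Replicate 1 was the highest siLSD1 library, and the absence of overlap was a condition of the choice. The scaled ratio was 4.08 (95% interval 2.77 to 6.17), and the level went from 0.256 ± 0.0288 FPKM to 1.04 ± 0.152 FPKM (SD, n = 3). It lies on chromosome 19 (GENCODE v44, chr19:35319261-35347361, + strand). The other SIGLEC genes in the table were near the floor of counting. CD33 summed to 12 reads in siCTR and 16 in siLSD1, MAG to 9 and 11, SIGLEC1 to 7 and 4, SIGLEC10 to 3 and 9, SIGLEC15 to 5 and 3, and SIGLEC9 to 1 and 1. None of these 6 genes had groups apart in either direction. Over the whole table, 8.76% of genes were apart with siLSD1 higher, and 1067 of 15585 with siLSD1 lower.

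PLK5, a Polo-like kinase that lacks a working kinase domain in humans, was counted 6, 6 and 9 times in siCTR and 36, 35 and 19 times in siLSD1. Replicate 3 was the lowest siLSD1 library, and the groups do not overlap, as the rule required. The scaled ratio was 4.28 (2.64 to 7.24). PLK1, the mitotic kinase, was abundant, at 104 FPKM in siCTR and 108 FPKM in siLSD1, with a log2 fold change of 0.04 ± 0.10 (SE). PLK2, PLK3 and PLK4 had log2 fold changes of 0.28, -0.30 and 0.20. None of these 4 kinases passed an adjusted p of 0.05 in edgeR, the lowest being 0.270 for PLK2. PLK5 shares 87 exon bases with ADAMTSL5 on the opposite strand, which had a log2 fold change of -0.03.

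Several members belong to the nervous system. NCAM1, a neural adhesion molecule, had siCTR counts of 1, 2 and 0 and siLSD1 counts of 12, 8 and 10. Its ratio of 9.98 rests on 3 control reads and has an interval of 3.10 to 51.1. EPHA5, an ephrin receptor of axon guidance, had 4, 1 and 2 reads against 14, 9 and 16. SLIT1, a ligand of the Robo guidance receptors, had 2, 3 and 3 reads against 13, 8 and 22. The siLSD1 libraries of SLIT1 were widely spread, with replicate 3 highest. CACNA1A, the pore subunit of the P/Q-type calcium channel, had 5, 1 and 2 reads against 17, 11 and 11. These 4 genes stayed at or below a mean of 0.130 FPKM after knockdown. SCN9A, a sodium channel of sensory neurons, and KALRN, an exchange factor of dendritic spines, had ratios of 2.34 and 2.02.

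CACNA1A was the only member among 68 listed targets of REST and CoREST. Of that list, 49 genes were in the table and 23 were tested. Their median log2 fold change was 0.12, beside -0.01 over all 11844 genes tested and 0.21 over the 692 tested genes with a control sum in the range of the rule. A single gene of the list was called in edgeR: DNER, a Notch ligand of neurons, which rose from 333, 327 and 312 reads to 498, 571 and 556 (log2 fold change 0.74 ± 0.13, SE, adjusted p = 0.0135). GRIN1, a glutamate receptor subunit, and GAD1, which makes GABA, had lower counts after knockdown (556 and 291, and 472 and 284 reads summed), with log2 fold changes of -0.93 ± 0.26 and -0.74 ± 0.17 (SE) and adjusted p of 0.119 and 0.0612 in edgeR. DESeq2 and edgeR without a filter each called 1 gene of the list higher and 2 lower.

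Muscle genes gave a pair of members from the same locus. MYH2, the myosin heavy chain of fast oxidative fibres, had 5, 1 and 0 reads in the controls and 16, 15 and 15 after knockdown, with a ratio of 7.65 (3.26 to 21.9). MYH8, the perinatal myosin heavy chain, had 20, 13 and 22 reads against 34, 54 and 60, with a ratio of 2.68 (1.96 to 3.73). Both sit in the skeletal myosin cluster of chromosome 17, on the - strand, at chr17:10521148-10549700 and chr17:10390322-10421950. Other genes of the cluster did not meet the rule. MYH1 summed to 2 reads in siCTR and 11 in siLSD1, MYH4 to 12 and 27, and MYH13 to 6 and 14. MYH3, the embryonic form, summed to 138 and 187, and its groups overlapped. MYH2 and MYH8 were chosen for being higher and apart. Of the other 4 genes, MYH1 had groups apart, as did 8.76% of all genes in the table in this direction. These genes are close copies of one another, and the counting could split reads between them, so the share of each is uncertain.

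**Figure D4:**
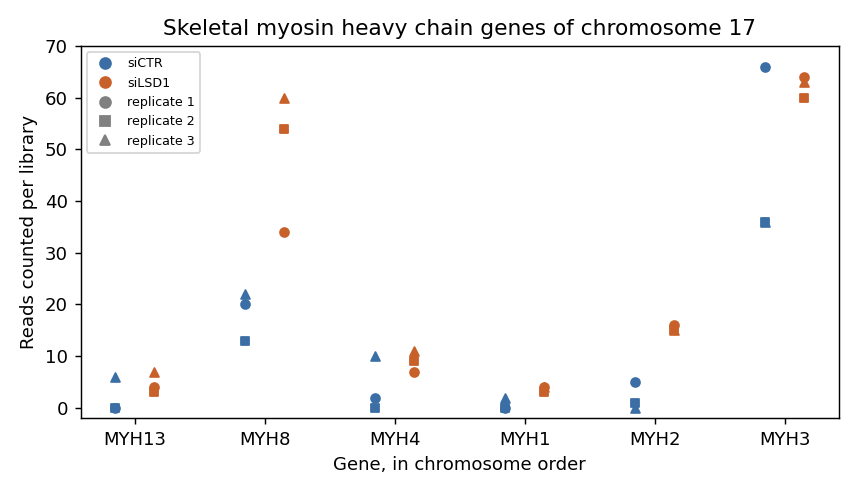
Reads counted per library (y axis) for the 6 skeletal myosin heavy chain genes in their order on chromosome 17 (x axis), with siCTR in blue and siLSD1 in orange. MYH8 and MYH2 have siLSD1 counts of 34 to 60 and of 15 to 16, all above their siCTR counts.

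Of 63 listed muscle genes, 46 were in the table and 19 were tested, with a median log2 fold change of 0.27. RYR2, the calcium release channel of heart muscle, rose (1.62 ± 0.22, SE, adjusted p = 0.00423 in edgeR). ENO3, the muscle form of enolase, fell (-0.63 ± 0.12, adjusted p = 0.0194 in edgeR). ITGA7, a laminin receptor of muscle that was not on the list, was a member with 11, 2 and 8 reads against 17, 18 and 15. It shares exon bases with BLOC1S1 and METTL7B on the opposite strand.

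Promoters are shown for 4 members whose sequence RefSeq gives (GRCh38.p14, 250 bases before to 50 after the RefSeq start): CD22, SLC16A12 with the largest ratio among members that passed the filter, and MYH2 and MYH8 of the same cluster. The RefSeq start lies well inside the span of the GENCODE gene for CD22 and SLC16A12, and slightly inside it for MYH2. Capitals mark matches, on either strand, to the TATA box (TATAAA), the CCAAT box with those letters, the TEAD motif (GGAATG), the GC box (GGGCGG) or part of the REST site (CAGCACC). A match that overlaps an earlier match to the same motif is not marked in full, as for a further GC box of SLC16A12. The E-box letters CAGGTG and the AP-1 motif TGANTCA were searched too.
CD22 (chr19:35328937-35329236, + strand): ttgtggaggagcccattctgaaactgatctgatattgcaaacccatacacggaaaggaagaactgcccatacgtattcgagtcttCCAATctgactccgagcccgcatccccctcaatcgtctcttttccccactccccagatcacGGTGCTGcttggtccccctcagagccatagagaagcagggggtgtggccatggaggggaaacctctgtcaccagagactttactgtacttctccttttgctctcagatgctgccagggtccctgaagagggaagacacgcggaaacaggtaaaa
SLC16A12 (chr10:89535545-89535844, - strand): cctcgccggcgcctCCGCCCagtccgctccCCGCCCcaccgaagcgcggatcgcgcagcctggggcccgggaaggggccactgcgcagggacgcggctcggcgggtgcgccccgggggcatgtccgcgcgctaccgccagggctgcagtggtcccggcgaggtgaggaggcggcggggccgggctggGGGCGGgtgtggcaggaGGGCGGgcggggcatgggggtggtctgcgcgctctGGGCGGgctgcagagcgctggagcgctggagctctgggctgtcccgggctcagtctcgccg
MYH2 (chr17:10549609-10549908, - strand): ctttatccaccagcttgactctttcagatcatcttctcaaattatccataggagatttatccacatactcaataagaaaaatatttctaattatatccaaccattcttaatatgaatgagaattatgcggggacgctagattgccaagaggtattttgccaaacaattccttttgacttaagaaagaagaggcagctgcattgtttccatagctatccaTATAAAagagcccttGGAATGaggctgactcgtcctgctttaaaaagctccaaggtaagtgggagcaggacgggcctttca
MYH8 (chr17:10421901-10422200, - strand): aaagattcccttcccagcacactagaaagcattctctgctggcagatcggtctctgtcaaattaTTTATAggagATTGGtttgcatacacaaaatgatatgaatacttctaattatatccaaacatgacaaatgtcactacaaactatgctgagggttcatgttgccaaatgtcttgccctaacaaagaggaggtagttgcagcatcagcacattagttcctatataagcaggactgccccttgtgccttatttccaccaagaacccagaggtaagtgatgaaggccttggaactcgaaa

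MYH2 and MYH8 both hold the TATA letters, MYH8 on the opposite strand, and lack the GC box. The TATA letters begin at -31 from the RefSeq start in MYH2 and at -186 in MYH8, so their place is not shared. SLC16A12 holds only GC boxes, and CD22 holds the CCAAT box and, on the opposite strand, the part of the REST site. Over all 27305 promoters of this length, 12.0% hold the TATA letters, 35.7% the CCAAT box, 14.05% the TEAD motif, 44.6% the GC box and 7.64% the part of the REST site. E-box letters were in 20.6% and AP-1 letters in 7.76%. Promoters were given for 47 of the 64 members, fewer than 80%, so a comparison of promoter content over the group is void. A match is a description of the sequence and says nothing of binding.

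Immune genes other than CD22 were also members. VTCN1, an inhibitory ligand of T cells, had 10, 12 and 9 reads (siCTR) against 35, 26 and 28 (siLSD1), a ratio of 2.86 (1.88 to 4.46). CPA3, a protease of mast cells, had 8, 10 and 16 reads against 20, 31 and 26 and reached 1.10 FPKM. STAT4, a transcription factor of T helper cells, had 5, 5 and 9 reads against 11, 12 and 24. Of 83 listed blood and immune genes, 61 were in the table, 53 of them with a control sum of at most 60, and only CD22 was a member. IL7R, the interleukin 7 receptor, was above the range and rose (1.10 ± 0.17, SE, adjusted p = 0.00782 in edgeR). Over the 13 tested genes of the list the median log2 change was 0.22. The list had a summed level of 106 to 119 CPM in siCTR and 115 to 117 in siLSD1. Its sum, led by LYN, did not separate the groups.

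PIWIL2, which guides small RNAs against transposons in germ cells, had siCTR counts of 12, 11 and 19 and siLSD1 counts of 42, 48 and 32, a ratio of 2.90 (2.03 to 4.22). ZCWPW1, a reader of histone marks in meiosis, had 14, 16 and 19 reads against 38, 37 and 42 and reached 1.20 ± 0.0485 FPKM (SD, n = 3). ACRBP, a protein of the sperm acrosome, had 11, 15 and 11 reads against 26, 21 and 32. RSPH1, of the radial spoke in motile cilia, had 3, 1 and 7 against 10, 13 and 9. Of 74 listed germline genes, 27 were tested, and the median was 0.12. SMC1B, the meiotic cohesin subunit, rose (1.68 ± 0.25, SE, adjusted p = 0.00695 in edgeR) from 43, 41 and 73 reads to 139, 138 and 230. PLAC1, made in trophoblast, was the only member among 57 listed placental genes outside the PSG family, with 9, 10 and 10 reads against 25, 21 and 32 and 1.74 FPKM after knockdown. The 18 genes of that list that were tested had a median of 0.01 and no call at an adjusted p under 0.05 in edgeR, while DESeq2 and edgeR without a filter each called 1 lower. The pregnancy-specific glycoproteins, also made in trophoblast, were not on the list and were left out of the members by name. PSG1, PSG2, PSG3 and PSG6 met the counts, with sums of 21 and 90, 34 and 132, 12 and 60, and 11 and 103 reads in siCTR and siLSD1.

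The largest ratio belonged to FBXW10, an F-box protein of ubiquitin ligases, with control counts of 1, 2 and 0 and siLSD1 counts of 4, 17 and 12. Its ratio of 11.0 has an interval of 3.44 to 55.9, and siLSD1 replicate 1 was close to the controls. KLHL3, a substrate adaptor of cullin 3 in the kidney, had the most reads, 21, 15 and 24 against 60, 40 and 55. MARCH4, a membrane ubiquitin ligase, had 12, 6 and 9 reads against 39, 30 and 34. Its ratio was 3.81 (2.47 to 6.05), and no siLSD1 library came near the controls.

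Kinases and signalling proteins included ROS1, a receptor tyrosine kinase, with 3, 4 and 1 reads in the controls and 20, 14 and 15 after knockdown (ratio 6.11, 2.87 to 14.9). PDE1C, a calmodulin-dependent phosphodiesterase, had 2, 6 and 2 reads against 13, 17 and 26 (5.59, 2.82 to 12.3). GRK3, which desensitises G protein-coupled receptors, had 4, 5 and 3 against 15, 9 and 17. PLCB4, a phospholipase C, had 13, 7 and 14 against 20, 28 and 41. In each of these genes the lowest siLSD1 library lay above the highest control, as the rule required.

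Some members are transporters or channels. SLC16A12, a creatine transporter, had 4, 0 and 3 reads in the controls and 13, 19 and 26 after knockdown, with a ratio of 8.27 (3.77 to 21.5). TRPM6, a magnesium channel, had 1, 9 and 2 reads against 14, 19 and 23, with siCTR replicate 2 apart from the other controls. ABCC9, a subunit of ATP-sensitive potassium channels, BEST3, of the bestrophin family, and SLC22A13, an organic anion transporter, had ratios of 2.42, 2.13 and 1.995. Metabolic enzymes had ratios between 2.03 and 3.20. HOGA1, of hydroxyproline breakdown, had 12, 9 and 12 reads against 50, 32 and 24 and reached 1.08 FPKM. BCO2, which cleaves carotenoids, had 14, 14 and 22 against 63, 27 and 33. FBP1, of gluconeogenesis, had 8, 10 and 12 against 20, 25 and 25. ACY1, DIO2 and FGGY had ratios of 2.11, 2.18 and 2.03. For HOGA1 and BCO2, siLSD1 replicate 1 was the highest library.

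DKK3, of the Dickkopf family, had 8, 7 and 7 reads (siCTR) against 27, 26 and 18 (siLSD1) (ratio 3.22, 1.97 to 5.46). MMP7, a matrix metalloproteinase, had 5, 6 and 7 against 22, 9 and 24, with siLSD1 replicate 2 close to the controls. LAD1, of the epithelial basement membrane, had 7, 7 and 7 against 19, 30 and 28. KRT13, a keratin of stratified epithelium, had 2, 9 and 2 against 20, 12 and 15. MFAP4 and ADAMTS20, of the extracellular matrix, had ratios of 2.17 and 2.03.

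Transcription factors besides STAT4 included ARNT2, RORA, TCF19 and ZNF404, with ratios of 2.33, 2.09, 2.35 and 1.995. WDR64, a WD-repeat protein, had siCTR counts of 1, 2 and 10 and siLSD1 counts of 12, 14 and 34, with replicate 3 highest in both groups. Per length, the highest levels after knockdown were those of AL121753.1, LRCOL1 and PPP1R36, at means of 2.64, 2.52 and 1.76 FPKM. The grouping by role was made after the values were seen. The remaining members, not named above, were AFAP1L2, BTBD16, C17orf113, CCDC30, FAM169A, GAL3ST4, NACAD, NUTM2D, PCARE, SPATA12, SSUH2, TTC16 and WDR31, with ratios from 1.995 to 2.72.

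Some genes stood at the edges of the rule. FAM169A (39 and 78 reads, siCTR and siLSD1 sums) and NACAD (30 and 60) met the ratio of 2 exactly, and MEOX1 (36 and 71) and PRPF31 (31 and 61) missed it. KLHL3 (60 and 155) was just inside the control ceiling, and TP63 (65 and 193) and C11orf71 (66 and 148) were just outside it. BTBD16 and NCAM1 had siLSD1 sums of 30, while CD163L1 and SPOCK1 had 29. FBXW10 and NCAM1 had control sums of 3, the lowest allowed. ADAMTS20 and GAL3ST4 had groups 1 read apart, and in CLDN16 and DNAH3 the lowest siLSD1 and highest siCTR counts were equal. The membership of genes at the edges therefore rests on a few reads.

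Members were placed on 20 chromosomes, and for no member was the nearest gene of the table another member. Of 47 nearest genes that were tested, 1 was called: ZNF45, 11239 bases upstream of ZNF404 on the same strand, rose (0.99, adjusted p = 0.00573 in edgeR). Of 63 members placed on the annotation, 40 share exon bases with another annotated gene, 11 of them with a gene of the table, and the sources used here do not say that the counting kept the strands apart. DKK3 shares 5681 bases with USP47 and FAM169A shares 2540 with NSA2, both on opposite strands, and these partners had log2 fold changes of 0.02 and -0.19. CCDC30 shares 264 bases with PPCS on the same strand. Genes outside the table share bases on the same strand as well, 3748 for ACY1 with the readthrough gene ABHD14A-ACY1, 2538 for KALRN, 675 for HOGA1 and 537 for BCO2. Reads on the shared bases may be ambiguous between the genes, and their part in the low counts was not tested.

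The members differed from the mirror genes in transcript length and base composition. The median transcript of a member was 4655 bases with 48.0% GC, and that of a mirror gene 2114 bases with 58.2% GC. For genes in the control range it was 2996 bases with 51.8% GC. Over the whole table it was 3690 bases with 48.6% GC, so in GC the members lay near the table and the mirror genes above it. These medians cover genes matched to the annotation, 63 of the 64 members and 2567 of the 2683 genes in the range. Of the whole table, 15352 of 15585 genes were matched. Length and GC content are properties by which libraries can differ, and their part in the counts was not tested beyond the correction that follows. With counts corrected for both in each library, the rule found 67 genes, 53 of them the same, and the mirror rule 24. In a second counting of the same libraries, which the pair tables hold, all 64 members had larger siLSD1 than siCTR sums and 60 had groups apart. Of the 27 mirror genes, 24 had groups apart there. The same libraries had chosen both sets, so the second counting is no independent check.

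Among the other lists, 28 of 50 liver and gut genes were in the table, and none was a member. FGB, the fibrinogen beta chain, rose (1.14 ± 0.22, SE, adjusted p = 0.0228 in edgeR). No endothelial gene of 52 was a member, but CDH5, the cadherin of endothelial junctions, met the counts (23 and 71 reads) and was left out by name. VWF, which binds platelets, rose (0.87 ± 0.19, adjusted p = 0.0418 in edgeR). The median log2 fold changes were 0.14 over 5 tested liver and gut genes and 0.11 over 9 tested endothelial genes. Without a filter, over all genes of a list in the table, the medians of these lists were -0.005 and -0.06. They were 0.11 for the REST and CoREST list, 0.39 for muscle, 0.50 for blood and immune and 0.13 for germline genes. For placental and mesenchymal genes they were -0.005 and 0.16, so several medians depended on the filter. No unfiltered median over all genes stands beside these values. Of the genes in the table, 33 of 46 muscle and 53 of 61 blood and immune genes had a siCTR sum of at most 60. Groups were apart, higher and then lower in siLSD1, in 6 and 6 of 49 REST and CoREST genes in the table, 9 and 0 of 48 germline, 7 and 1 of 40 placental, 7 and 1 of 46 muscle, 5 and 2 of 61 blood and immune, 2 and 2 of 36 endothelial, 3 and 1 of 28 liver and gut, and 3 and 1 of 15 mesenchymal genes. Members are included in these counts, and 1366 (8.76%) and 1067 of all 15585 genes were apart. Of the mesenchymal markers, FN1 and PDGFRB rose (0.95 ± 0.18 and 1.00 ± 0.17, adjusted p = 0.0216 and 0.0134 in edgeR).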

How the data were processed

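Total RNA of U2OS cells was sequenced 48 h after siRNA transfection. The authors deposited read counts per gene and FPKM for 6 libraries, and a second set of counts in tables of same-numbered pairs; the submitters' processing notes name STAR, and the genome build is not given in the sources used here. Columns of the authors' own comparison (normalized values, fold changes and p-values) were not used. Genes were tested with edgeR 4.0.16 (quasi-likelihood, TMM, filterByExpr with a minimum count of 10, adjusted p under 0.05). DESeq2 1.42.0, other filters and scalings, a block for the replicate number, a correction for GC content and length (lowess, span 0.3) and leaving out each library were tried; DESeq2 without a filter and the rule on corrected counts were chosen after seeing the data. Scripts were tested on simulated data. Ratios carry exact (Clopper-Pearson) 95% intervals from scipy 1.17.1, which cover counting error only. Positions came from GENCODE v44 and promoters from RefSeq, both GRCh38. Named genes were CD22, PLK5, KDM1A, the 10 members with the largest ratio and the 10 with the highest FPKM, members and called genes on the lists, Polo-like kinases, SIGLEC genes and genes next to each threshold; other members were named by role after their values were seen. The members and lists were chosen with earlier results of these data known.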

Additional observations from a re-analysis of the deposited data

How the results depend on the processing

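The fold change of KDM1A stayed between -2.50 and -2.38 in every alternative. edgeR called 127 genes higher and 44 lower after knockdown. DESeq2 called 210 and 113, and DESeq2 without a filter, chosen after seeing the data, called 191 and 102. edgeR without a filter called 188 and 102, the correction for GC content and length 532 and 342. With each library left out, 45 to 99 genes were higher and 7 to 37 lower. The cause of these differences was not tested.

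The replicate numbers were not taken to pair the libraries: deviations of same-numbered libraries correlated at 0.328, 0.0744 and 0.310, although every library correlated best with its own number, a hint from the data and not the design. The replicate block called 489 genes higher and 408 lower, and 730 and 578 with the GC and length correction. Of the members, 14 were called, 30 with the replicate block, 27 with the GC and length correction, 31 with both, and 1 to 7 with each library left out. The 14 were among those called with the block, with the correction and with both. DESeq2 called 16 members and edgeR without a filter 20, with the 14 among them. Scaling by library size only called 10, all of them among the 14. DESeq2 without a filter called 12, of which 11 were among the 14.

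The rule found 64 genes, and its mirror 27. A ratio of at least 3 left 20 and 2 by construction, and a sum of at most 30 in the silent group left 42 and 23. With overlap allowed they found 90 and 44. With each library left out, 72 to 104 and 25 to 59 genes were found. Fewer libraries make the condition on overlap easier to meet. Of the 64 members, 45 (without siCTR replicate 2) to 58 (without siLSD1 replicate 2) were among the genes found. On scaled counts 61 (58 the same) and 29 were found, and in the second counting 71 (52 the same) and 28. The share of left-out comparisons higher in siLSD1 averaged 74.2%, and 73.6% on raw counts. Calls over all lists were 13 of 130 tested genes, 17 of 130 with DESeq2 and 17 of 332 with no filter. Over all 11844 genes tested, edgeR called 1.07% higher and 0.371% lower. The 13 include the members CD22, PIWIL2, MYH8 and PLK5, which the rule chose on the same contrast, so nothing is read from the count. At these depths a member rests on few reads.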
